A study of Drosophila melanogaster with 3 samples.

Results

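The 9 genes described here, Fib, nop5, Nop56, Nop60B, Nnp-1, l(2)k09022, Bka, Nopp140 and Non1, form a named set for nucleolar ribosome biogenesis, out of 13968 protein-coding genes on the 7 chromosome arms. They were taken by name, with earlier results of these data known, and were divided into 4 genes for core proteins of small nucleolar ribonucleoproteins (snoRNPs) and 5 genes grouped as processing factors. Each of the 9 has 1 annotated start site. The study mapped the binding of crp, a basic helix-loop-helix protein of the AP-4 family, by chromatin immunoprecipitation and sequencing (ChIP-seq) in Drosophila melanogaster. Its 3 samples are biological replicates of 1 group: whole embryos of pooled males and females, aged 0 to 24 h, from a transgenic line that stably expresses crp with GFP fused to its C terminus. The fusion was precipitated with an antibody against GFP from chromatin sonicated to 200 to 800 bp. It is not stated in the labels whether the tagged gene was added to the native one or replaced it. The embryos mix many stages and tissues, no second genotype or treatment enters, and a control library was not analysed here.

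Ribosomes are assembled in the nucleolus, where one long precursor transcript is modified, folded and cleaved while ribosomal proteins join it. Box C/D snoRNPs add methyl groups to ribose and box H/ACA snoRNPs turn uridine into pseudouridine, each at sites that a small nucleolar RNA (snoRNA) selects by base pairing. Processing factors then cut and fold the precursor into the small and the large subunit, and in flies as in other animals many of these genes are textbook targets of the growth regulator Myc, which binds the E-box CACGTG with its partner Max. The AP-4 family binds a different E-box, CAGCTG.

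The sequences below show these motifs where they lie at the members. The first set gives the bases up to 50 bp on either side of the crp summit, on the strand of the gene and ended before the transcript starts, on dm6 with sequence credited to RefSeq. Capitals mark CAGCTG in l(2)k09022 and GGTATTTT in Nop56. The windows of l(2)k09022, Bka and Nnp-1, the members with the most signal, show that 1 of these 3 holds CAGCTG beside its summit.
l(2)k09022, chr2L:6854043-6854141, plus strand: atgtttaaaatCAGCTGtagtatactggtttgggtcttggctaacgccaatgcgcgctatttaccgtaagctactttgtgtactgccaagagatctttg
Bka, chr2L:9895043-9895143, plus strand: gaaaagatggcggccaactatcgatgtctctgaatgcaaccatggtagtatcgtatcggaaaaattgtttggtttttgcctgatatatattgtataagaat
Nnp-1, chr2L:13366322-13366422, minus strand: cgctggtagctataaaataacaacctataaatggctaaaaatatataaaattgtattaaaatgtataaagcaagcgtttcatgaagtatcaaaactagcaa
Nop56, chr3R:22421069-22421131, minus strand: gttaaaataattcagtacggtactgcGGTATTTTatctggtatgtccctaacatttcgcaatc

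The second set gives 26 bases centred on the Myc/Max E-box nearest the start site, in capitals, because 8 of the 9 genes hold this word within 50 bp of the start. For nop5 it spans bases just upstream of the start, and for the other 5 genes shown it lies in the 5′ untranslated part of the first exon.
nop5, chr2L:6918735-6918760, minus strand: accgaaggcaCACGTGcttgcacttc
Nop56, chr3R:22421025-22421050, minus strand: ttgaagtaagCACGTGggaaaacaac
Nnp-1, chr2L:13366140-13366165, minus strand: cgaacggcaaCACGTGcggtcgtgcc
l(2)k09022, chr2L:6854147-6854172, plus strand: accaacaaaaCACGTGtggagtgcgg
Bka, chr2L:9895311-9895336, plus strand: atacttaccaCACGTGtgccactttt
Nopp140, chr3L:21832782-21832807, plus strand: aagtagaaaaCACGTGtgagtgcgca

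The data are peak lists, with no reads or counts, so read depth is unknown. The relaxed lists of replicates 1, 2 and 3 held 30000, 28713 and 30000 peaks, and 5460 peaks passed the authors' threshold on the irreproducible discovery rate (IDR), a score of how well the order of peaks repeats from sample to sample. These 5460 were the strongest peaks of the pooled list. The signal of a peak is the authors' own value and was read within a list only. It is given as relative signal, which is the deposited signal divided by the median signal of the 5460 strongest peaks of the same list, so that 1 is a typical strong peak.

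An IDR summit stood no farther than 500 bp from the start site of all 9 genes, against 33.3% of all protein-coding genes (4657 of 13968) and 28.3% of those with 1 start site. As the genes were picked with results in view, the 9 of 9 is a description of them and carries no test. Of the 9 main summits, the strongest at each gene, 8 matched within 100 bp one of the 5460 strongest peaks of every replicate, as 67.3% did over all genes with such a summit. The exception was nop5. Taken one at a time, the strongest peaks of replicates 1, 2 and 3 included a promoter peak at 8, 8 and 9 of the members, beside 30.3%, 31.7% and 32.1% of all protein-coding genes. Relative signal in the IDR list ran over a 35.3-fold range, from 0.456 at nop5 to 16.1 at l(2)k09022. The middle member stood at 2.60, and the median of all 4657 genes with a promoter summit was 1.50.

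Fib, on chromosome arm 2R at 23072909 to 23074725 on the minus strand (FBgn0003062), encodes fibrillarin, the methyltransferase of box C/D snoRNPs. Its relative signal was 1.32, 1.92 and 1.68 in replicates 1, 2 and 3, a mean of 1.64 ± 0.304 (SD, n = 3). All replicates lay above a typical strong peak. The IDR summit at position 23074775, 50 bp upstream of the start, was intergenic and ranked 1638 of 5460. The replicate summits lay at -54, -49 and 6 bp, the last being the only one among the members' main replicate summits that fell downstream of the start.

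Nop56 (FBgn0038964, 3R, 22419095 to 22421068, minus strand) encodes a scaffold protein of box C/D snoRNPs. Its relative signal was 1.58, 1.26 and 1.61, with a mean of 1.48 ± 0.193 (SD, n = 3), and the ranges of Nop56 and Fib overlapped. The IDR summit at 22421081 was the closest of the 9 to a start site, 13 bp upstream, with replicate summits at -13, -24 and -44 bp. Weaker peaks lay further upstream, at -213 bp in replicate 1 and -243 bp in replicate 3, with relative signals of 0.351 and 0.241. Those minor summits lay 25.5 and 4.5 bp from the CAGCTG of this promoter, and neither was in the IDR list.

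The second scaffold gene, nop5 (FBgn0026196, 2L, 6916753 to 6918743, minus strand), is the fly counterpart of Nop58. Relative signal was 0.263 in replicate 1 and 0.474 in replicate 3, and no peak of replicate 2 lay within 100 bp. The mean over the listed replicates was 0.368 ± 0.150 (SD, n = 2). The IDR peak at 6918938 ranked 5460 and was thus the weakest to pass the threshold, and the peak stood at rank 10508 in replicate 1 and 4967 in replicate 3. The replicate summits lay at -150 and -233 bp. Both the summit and the start of nop5 lie inside a transcript of x16, which encodes a splicing factor, outside its exons.

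Nop60B (FBgn0259937, 2R, 24174877 to 24186343, plus strand) encodes the fly dyskerin, the pseudouridine synthase of box H/ACA snoRNPs, and hosts 7 annotated snoRNA genes. Relative signal was 5.74, 5.56 and 5.79, a mean of 5.70 ± 0.119 (SD, n = 3), the narrowest relative spread of the 9. It stood well above the box C/D genes, with no overlap of ranges. The main summit at 24174483 ranked 815 and lay 394 bp upstream, the farthest of the 9, and the replicate summits at -369, -397 and -405 bp kept to that place. A second IDR summit, 201 bp closer to the gene at -193 bp, ranked 1055 with a relative signal of 4.18. In the replicates that second summit had 4.71, 3.18 and 4.04, below the first one in each of the 3.

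**Figure D1:**
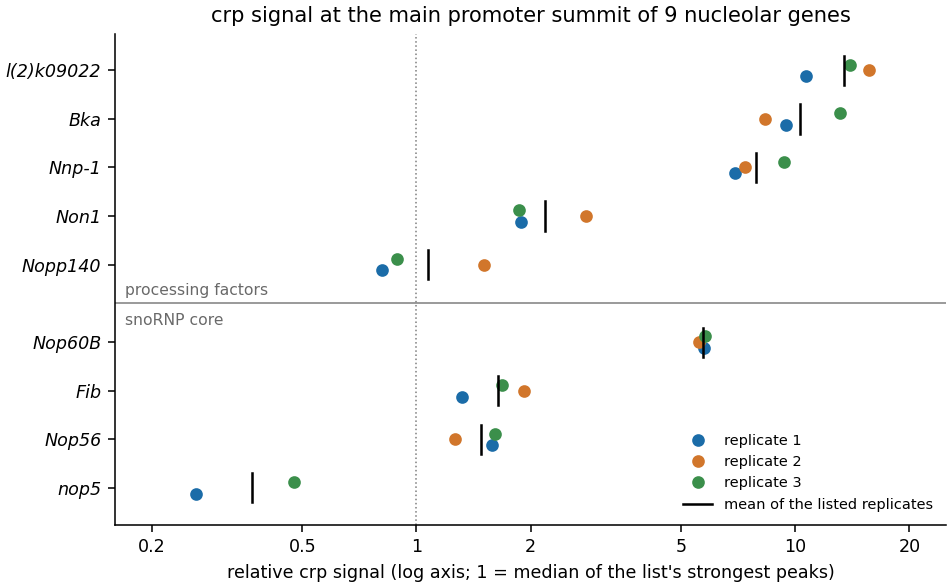
Relative crp signal (log axis, 1 is the median of the strongest peaks of a list) at the main promoter summit of each gene, with one point per replicate and a bar at the mean of the replicates that list the peak. The 3 points of l(2)k09022, Bka, Nnp-1 and Nop60B lie between 5.56 and 15.6, while those of the other genes lie between 0.263 and 2.80.

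Among the processing factors, l(2)k09022 (FBgn0086451, 2L, 6854142 to 6860849, plus strand) encodes the counterpart of yeast Utp10 and human HEATR1, a large protein of the small-subunit processome. Relative signal was 10.7, 15.6 and 14.0, a mean of 13.4 ± 2.54 (SD, n = 3). This was the strongest member, at rank 192 of the IDR list and at ranks 293, 120 and 267 in the replicates. Its summit at 6854093 lay 49 bp upstream, and the replicate summits at -43, -45 and -50 bp were the most tightly placed of the 9. By Euclidean distance in log2 relative signal over the 3 replicates, among 3960 genes with a value in each, the promoters with the most similar levels were those of CG7692 (0.12), cutlet (0.14) and Prx6a (0.15). CG7692, for example, had 10.7, 16.7 and 14.8.

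Bka (FBgn0010520, 2L, 9895287 to 9896104, plus strand) had relative signals of 9.43, 8.30 and 13.1, a mean of 10.3 ± 2.52 (SD, n = 3). The range overlapped that of l(2)k09022. The IDR summit at 9895093 ranked 364 and lay 194 bp upstream, with replicate summits at -202, -200 and -193 bp. Replicates 1 and 3 listed a further peak over the start of the gene, at 27 bp and 67 bp, with relative signals of 5.91 and 4.10. The first of these lay 17.5 bp and the second 57.5 bp from a CAGCTG centred 9.5 bp downstream of the start. Replicate 2 and the IDR list had no summit there.

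Nnp-1 (FBgn0022069, 2L, 13363308 to 13366189, minus strand) encodes the counterpart of RRP1, which acts in processing of large-subunit RNA in yeast. Relative signal was 6.93, 7.37 and 9.31, a mean of 7.87 ± 1.27 (SD, n = 3). The IDR summit at 13366372, ranked 558, was 183 bp upstream and the replicate summits were at -123, -182 and -196 bp. Each replicate also listed a weaker peak farther upstream, at -333, -385 and -398 bp with relative signals of 2.63, 0.553 and 1.97, and the IDR list had no summit there.

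Nopp140 (FBgn0037137, 3L, 21832774 to 21836685, plus strand) encodes a chaperone that binds snoRNPs. Relative signal was 0.812, 1.51 and 0.890, a mean of 1.07 ± 0.381 (SD, n = 3), with replicate 2 above a typical strong peak and replicates 1 and 3 below it. The IDR summit at 21832749 ranked 2139 and lay 25 bp upstream.

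Non1 (FBgn0028473, 2R, 9396265 to 9398734, minus strand) encodes the counterpart of the nucleolar GTPase NOG1 of large-subunit assembly. Relative signal was 1.89, 2.80 and 1.86, a mean of 2.18 ± 0.532 (SD, n = 3). The main summit at 9398801, ranked 1369, lay 67 bp upstream. A second IDR summit 218 bp farther from the gene, at -285 bp, ranked 3357 with 0.790. Nop60B and Non1 were the 2 members with a second IDR summit, against 18.8% of all genes with a promoter summit.

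Ordered by mean relative signal the genes ran l(2)k09022, Bka, Nnp-1, Nop60B, Non1, Fib, Nop56, Nopp140 and nop5. Neighbours in this order had overlapping ranges over the replicates except at 3 steps. Nnp-1 lay above Nop60B, Nop60B above Non1, and Nopp140 above nop5 in the 2 replicates that list nop5. The main summits of l(2)k09022, Bka, Nnp-1 and Nop60B were among the 1092 strongest of the IDR list, 4 of 9 beside 33% of all genes with a promoter summit. The median of the members was 1.89, 2.80 and 1.86 in replicates 1, 2 and 3, with nop5 set to the lowest value of the list in replicate 2. The same median over all genes with a promoter summit was 1.10, 1.40 and 1.27.

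By the median, the 4 snoRNP core members carried less signal than the 5 processing members in every replicate. The median relative signal was 1.44 in the core and 6.93 in the processing factors in replicate 1, 1.56 and 7.37 in replicate 2, and 1.65 and 9.31 in replicate 3. These medians were taken on the log2 scale and converted back. The core was lower by a mean log2 difference of -2.34 ± 0.143 (SD, n = 3 replicates). The exact two-sided sign-flip permutation test gave p = 0.25, the smallest that 3 replicates allow, so this design cannot pass the usual threshold. The division was not clean at the level of genes: Nop60B stood above Nopp140 and Non1 in every replicate, and Nopp140 was lower than Fib in each. Bka stands among the processing factors by the division taken over with the set, and its role is not stated here. Without Bka the processing median, taken in the same way, was 3.62, 4.54 and 4.17 in replicates 1, 2 and 3. The mean log2 difference was then -1.40 (p = 0.25, exact sign-flip permutation test). Restriction to the 6 genes that hold the protein-coding start nearest to their main summit leaves out Fib, Nop60B and Nnp-1. The log2 difference was then -3.02, with a core of nop5 and Nop56 alone. There nop5 was set in replicate 2 to the lowest value of that list, a relative signal of 0.0883. The size of the difference thus rests on which genes enter and, in the last case, on the value set for nop5. The direction was the same in these alternatives, all chosen after seeing the data.

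Every one of the 9 main summits was upstream of its start site, as were 87.2% over all genes with a promoter summit, and 25 of the 26 matching replicate summits were upstream too. The median place was -67 bp, beside -72 bp over all 4657 genes. A replicate summit lay a median of 9.5 bp and at most 60 bp from the IDR summit. The promoters fell into a near set within 67 bp of the start (Fib, Nop56, l(2)k09022, Nopp140 and Non1) and a far set 183 to 394 bp upstream (nop5, Nnp-1, Bka and Nop60B). This cut was not set in advance. Of the 4 far genes 3 (Bka, Nnp-1 and Nop60B) were among the strongest 4 members, and of the 5 near genes 1, l(2)k09022, was. At these 3 far genes the summit was nearer the start of an opposite-strand gene, 90 bp at Bka, 75 bp at Nnp-1 and 42 bp at Nop60B. The weakest member, nop5, is in the far set.

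**Figure D2:**
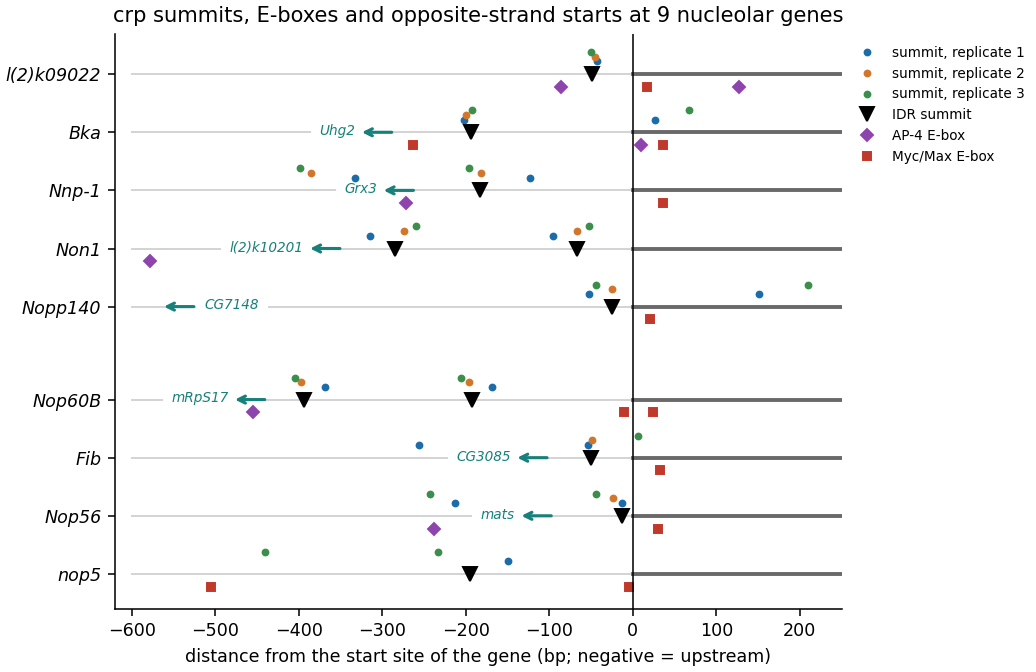
Map of the 9 promoters, with distance in bp from the start site on the x axis, one row per gene, every listed replicate summit as a small point, IDR summits as triangles, AP-4 and Myc/Max E-boxes as marks under the line and the nearest opposite-strand start sites as green arrows. Main summits lie between -394 and -13 bp, and Myc/Max E-boxes cluster just downstream of the start in 7 of the 9 rows.

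At 7 of the 9 genes the main summit also lay within 500 bp of the start of a gene on the opposite strand, beside 58.3% of all genes with a promoter summit. The deposited peaks cannot assign a summit to one of 2 such genes. At Fib the summit sat between starts 98 bp apart, 50 bp from Fib and 48 bp from CG3085. At Nop56 it lay 13 bp from Nop56 and 80 bp from mats, the gene of a Hippo pathway protein. At Nop60B it was nearer the other gene, 42 bp from mRpS17, which encodes a mitochondrial ribosomal protein. The same held at Nnp-1, where the glutaredoxin gene Grx3 started 75 bp from the summit and Nnp-1 itself 183 bp. At Non1 and Nopp140 the member was nearer, with l(2)k10201 279 bp and CG7148 496 bp from the summit.

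At Bka the opposite-strand partner was Uhg2, a noncoding host gene of snoRNAs, whose start lay 90 bp from the summit against 194 bp for Bka. The box C/D guide snoRNA:Me18S-A1576 starts 186 bp from the same summit. The peak of Bka, the second strongest of the 9, therefore stands between a gene of the set and a gene whose introns carry snoRNAs. By position, nop5 and l(2)k09022 had no opposite-strand start within reach. Fib and nop5 host 1 annotated snoRNA gene each, and none of the 5 processing genes hosts any.

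The AP-4 E-box CAGCTG lay whole within 50 bp of the main summit at 1 of the 9 genes, l(2)k09022, beside 31.4% of all genes with a promoter summit. Its centre was 36.5 bp from the summit, at -85.5 bp from the start, and the word is its own reverse complement, so that a match counts on both strands. At the strongest summit of each gene in each replicate list the count was also 1. Weaker replicate summits lay 17.5 bp from a site at Bka (replicate 1) and 25.5 and 4.5 bp at Nop56 (replicates 1 and 3). The sites next nearest to a main summit were 60.5 bp away at Nop60B and 88.5 bp at Nnp-1. A window of 100 bp took in both, making 3 of 9 beside 42.7%. With 25 bp the count was 0 of 9, beside 17.8%. At Bka and Nop56 the nearest site was 203.5 and 225.5 bp away, and at Non1 511.5 bp. Fib, nop5 and Nopp140 had none within 600 bp of the start. Of the 4 genes among the 1092 strongest peaks, 1 held the site within 50 bp of its summit, beside 59.8% of all genes with a main summit among those peaks.

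The Myc/Max E-box CACGTG, a motif added after the data had been seen, lay whole within 50 bp of the start at 8 of the 9 genes, all but Non1. Over all protein-coding genes the share was 2.48% (346 of 13968), and over genes with a promoter summit 3.89% (181 of 4657). Its centre was downstream at 17.5 bp in l(2)k09022, 20.5 bp in Nopp140, 24.5 bp in Nop60B, 30.5 bp in Nop56, 32.5 bp in Fib and 36.5 bp in both Nnp-1 and Bka. In nop5 it was at -4.5 bp, and Nop60B had another at -10.5 bp. Centres 10 to 40 bp downstream, a range also set after seeing the data, were found in 7 of the 9 genes and in 1.25% of all. No binding of Myc or Max was measured here.

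Most crp summits lay apart from these E-boxes. A CACGTG lay within 50 bp of the main summit at Nop56 and Nopp140, whose summits are the closest to their starts, beside 1.85% of all genes with a promoter summit. In Fib it was 82.5 bp from the summit, in l(2)k09022 66.5 bp, in nop5 190.5 bp and in Nnp-1 219.5 bp. Bka was the 1 gene with a second such word near the summit, 69.5 bp away on the side of Uhg2. Of all protein-coding genes with CACGTG within 50 bp of the start, 52.3% had a crp promoter summit, and of those without it 32.9% did.

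**Figure D3:**
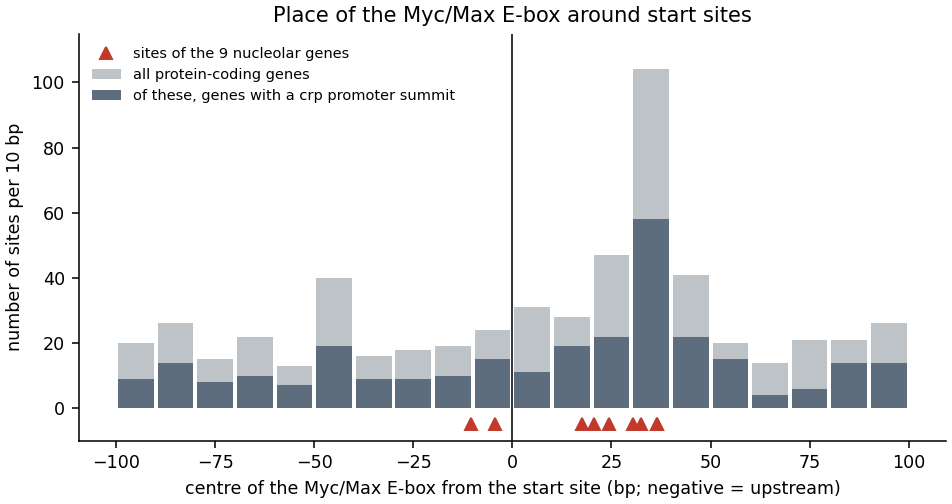
Number of Myc/Max E-boxes by distance of their centre from the start site in bins of 10 bp, for all protein-coding genes (light bars) and those with a crp promoter summit (dark part), with red triangles for the sites of the members. An E-box counts once for each annotated start site near it. The bin from 30 to 40 bp downstream holds 104 sites counted in this way, 58 of them in genes with a summit. The member sites fall between -10.5 and 36.5 bp.

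Over all protein-coding genes this E-box was counted once for each annotated start site near it. It was most frequent in the bin 30 to 40 bp downstream, with 104 sites. The bin 20 to 30 bp downstream had 47 and the next one out 41. Of the members, Nop56, Fib, Nnp-1 and Bka have theirs in the bin 30 to 40 bp downstream. Other core promoter words were scored on both strands and no matches overlapped at the members. GGTATTTT was centred at -33.5 bp in both Fib and Nop56, 2 of 9 beside 2.94% of all genes within 50 bp. The site of M1BP, GGTCACACT, occurred in Nop56 alone, 14 bp downstream (4.92% of all genes). The DRE, TATCGATA, was within 50 bp of the start in Nop60B alone, at -29.5 bp (6.06% of all genes). A match says only that the letters are present.

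A wider list put the members beside other genes of the same pathway. This list too was made with earlier results of these data known, so its shares are descriptions and carry no test. Of 75 listed genes 71 matched the annotation, and the 62 that are not members comprise other snoRNP proteins, small-subunit factors, large-subunit factors and the exosome, which trims ribosomal RNA. Of these 62, 49 had a promoter summit (79.0%, 95% Wilson interval 67.4 to 87.3), beside 33.3% of all genes. Their median relative signal in the IDR list was 1.38, beside 2.60 for the members. By group the median was 1.66 in the other snoRNP genes, 1.33 in the small-subunit factors, 1.26 in the large-subunit factors and 2.65 in the exosome. The other snoRNP genes thus stood no lower than the subunit factors, unlike the core members beside the processing members. In all 3 replicates 34 of the 49 were among the strongest peaks, a share near the 67.3% of all genes with a promoter summit. The AP-4 E-box was within 50 bp of the summit in 8 of the 49 (16.3%), again beside 31.4% of all genes with a promoter summit.

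Among the other snoRNP proteins 7 of 8 genes had a promoter summit, and 5 of them had means between 0.760 and 2.14, around the level of Fib and Nop56. The H/ACA partners of Nop60B stood lower than Nop60B itself: NHP2 had a mean relative signal of 1.61 ± 0.439, Nop10 of 1.34 ± 0.259 and Gar1 of 0.760 ± 0.159 (SD, n = 3 each). CG10341, the counterpart of the H/ACA assembly factor Naf1, had 2.14 ± 0.767. Of the AAA ATPases that assemble box C/D particles, rept had 10.6 ± 1.67 and pont 1.18 ± 0.420 (SD, n = 3). Nufip, an assembly factor, had 0.392 ± 0.110, close to nop5. hoip, which encodes a core protein of box C/D particles, had no promoter summit, although it holds CACGTG within 50 bp of its start.

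Of the strongest genes of the wider list that are not members, smid, Rrp40 and rept are described. smid, an AAA ATPase gene, had relative signals of 17.0, 18.5 and 19.3, and Rrp40, an exosome subunit gene, had 12.8, 10.3 and 16.2. smid was above l(2)k09022 in each replicate, while the ranges of Rrp40 and l(2)k09022 overlapped. Neither smid nor Rrp40 held CAGCTG within 50 bp of the summit or CACGTG within 50 bp of the start.

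**Figure D4:**
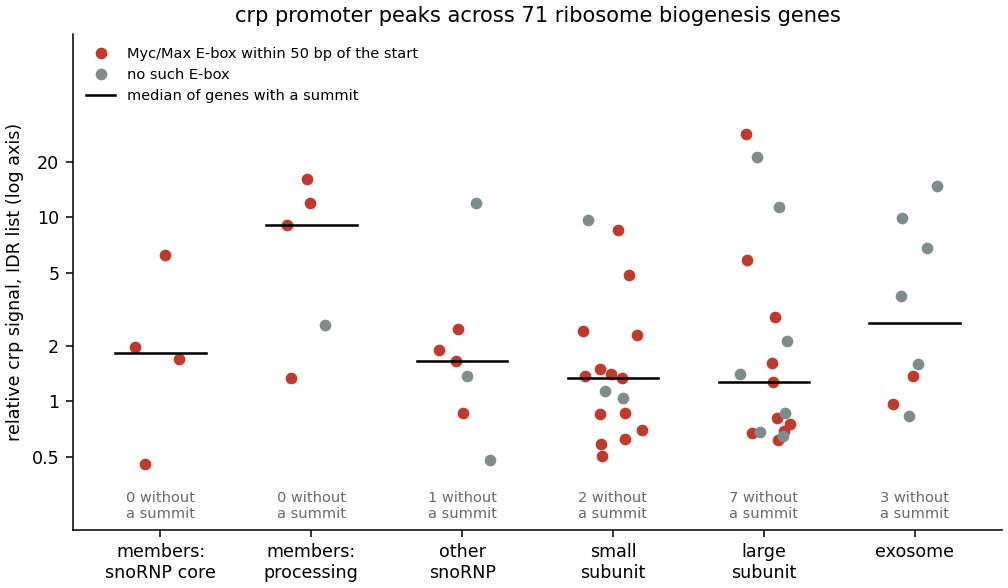
Relative crp signal in the IDR list (log axis) for the members and the other ribosome biogenesis genes by group, coloured by a Myc/Max E-box within 50 bp of the start, with a bar at the median of genes with a summit and the number of genes without one below. The lowest point is nop5 at 0.456, and the exosome group has 2 genes with that E-box.

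The Myc/Max E-box was within 50 bp of the start in 38 of the 62 other genes (61.3%), beside 2.48% of all genes. By group it was in 5 of 8 other snoRNP genes, 15 of 19 small-subunit genes, 16 of 24 large-subunit genes and 2 of 11 exosome genes. A promoter summit was found in 17 of the 19 small-subunit genes, 17 of the 24 large-subunit genes and 8 of the 11 exosome genes. The exosome genes thus had crp summits mostly without that E-box. Of the 49 other genes with a summit 30 held the E-box, and of the 13 without a summit 8 did.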

How the data were processed

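The peak lists were used as the authors deposited them: 1 relaxed list for each replicate, 1 for the pooled replicates and 1 past the IDR threshold, all on dm6. Neither the aligner nor the peak caller with its settings is named in the labels, and the cutoff of the IDR is likewise not stated. The signal value and the −log10 q value of each peak are the authors' deposited values, and the −log10 q value was not used because it is constant in the IDR list. Relative signal, summit positions (peak start plus the deposited offset), distances and motif matches were computed here with Python 3.11.15, numpy 2.4.6, pandas 2.3.3, scipy 1.17.1 and matplotlib 3.10.9, statsmodels 0.14.6 giving 95% Wilson intervals, which cover counting error only. Summits of 2 lists matched within 100 bp. The main summit of a gene is its strongest within 500 bp of a start site. Gene models came from Ensembl release 115, sequence from the RefSeq copy of dm6. Motifs were searched as whole words within 600 bp of the start.

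The members and lists were chosen with earlier results of these data known, and the Myc/Max E-box and its 10 to 40 bp range after these data were seen. All members, genes starting within 500 bp of their summits, the other snoRNP genes, the 4 strongest of the wider list (1 of them is not reported here) and the 3 promoters most like the strongest member were named by rule. The labels give biological replicates, so the spread between replicates is that between these 3 samples. Of the 75 listed genes 4 matched no protein-coding gene by name and were left out. The motif search and the search for summits near a start site were tested on simulated data. A replicate that lacks a peak was left out of the mean over replicates of a single gene. In medians and means over genes it was set to the lowest value of its list.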

Additional observations from a re-analysis of the deposited data

How the results depend on the processing

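Of the recomputed summary values 42 were counted as the same and 4 as moved. Some of the 42 differed in size, as the values below show. The 2 that moved for the AP-4 E-box are the window of 100 bp, with 3 members, and of 25 bp, with 0, beside 1 at 50 bp. The Myc/Max E-box was at 4 members within 25 bp of the start, beside 8 at 50 bp, with 0.859% and 2.48% of all genes, a window tried after seeing the data. Scaled to the median of all relaxed peaks, the median of the members was 14.2 in place of 2.18, and all 9 single genes moved with it; the divisor alone differs. The members with a promoter peak numbered 9 with distances of 200 and 1000 bp (27.0% and 36.2% of all genes) and with RefSeq gene models. They numbered 8 in the stronger part of the IDR list (21.1% of all genes) and 8 without any 1 replicate (24.9% to 25.8%). When the member had to hold the protein-coding start nearest to a summit, 7 remained with any IDR summit and 6 with the main summit. Those found in all replicates were 6 of 9 with matching within 50 bp. For the nearest-start counts and for matching within 50 bp no share over all genes is given, so these counts only describe the members. The core minus processing difference ran from -2.38 to -2.25 on the log2 scale with 1 replicate left out (exact p = 0.5, the smallest 2 replicates allow), was -2.52 without Nopp140, -2.49 without Nop60B, -1.40 without Bka and -1.83 with means over genes. It was -1.66 for the 7 and -3.02 for the 6 genes nearest to a summit. The -1.83 and the -3.02 both depend on the value set for nop5 in replicate 2, the lowest of that list. Other ribosome biogenesis genes with a promoter peak numbered 44 and 50 with 200 and 1000 bp, and 38 to 42 with 1 replicate left out. The median summit place ran from -81.5 to -59.5 bp with 1 replicate left out, and the median member signal from 1.88 to 2.34. Depth is unknown, so a peak not listed, as at nop5 in replicate 2, is below what that list reports. No paired analysis was possible because there is only 1 group.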

Other observations

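The snoRNA host genes named Uhg carry the guide RNAs that the snoRNP core proteins use, and were looked up after the values of the 9 genes had been seen. Of the 7 Uhg genes in the annotation, 4 had a promoter summit of the IDR list (500 bp), beside 6.93% of 3289 noncoding RNA genes. Uhg2 shares the peak of Bka, the strongest of these 4. Uhg3 had a summit at -59 bp with relative signals of 1.66, 2.07 and 2.07 in replicates 1, 2 and 3, above Fib in each. Uhg4 had one at -70 bp, with 0.522, 2.37 and 0.826, where replicate 2 stood apart from the others. Uhg8 had a summit at -365 bp with 0.473 in the IDR list, close to the threshold like nop5, and was not listed in replicate 3. The promoters of Uhg1, Uhg5 and Uhg7 had no IDR summit. None of the 4 summits held CAGCTG within 50 bp. The number of Uhg genes is too small for a statement on the class.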
